A study of Arabidopsis thaliana with 114 samples.

Results

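The RNA of Arabidopsis thaliana seedling shoots was compared 10 min after nitrogen supply with that of shoots that had received KCl for the same time. The 6 libraries, 3 nitrogen and 3 KCl, were chosen by their titles and make up 2 of the 38 groups of the series, each of 3 libraries. Seedlings of all groups were raised in trays with 1% sucrose and 1 mM KNO3. By the protocol, the nitrogen shoots then received 20 mM KNO3 with 20 mM NH4NO3, which is 60 mM nitrogen. The KCl shoots received 20 mM KCl. The treatment label of the nitrogen samples names KNO3 alone, and the protocol was followed here. Further groups of 3 libraries each serve as reference points, namely nitrogen and KCl shoots at 5 and at 15 min, nitrogen and KCl roots at 10 min, and shoots at time 0 that had received neither treatment. Genotype, seedling age and the unit of the time labels are not given in the sources used here, and the times were read as minutes. The labels do not say whether replicates came from separate trays, so p-values measure the spread between these libraries, which may be technical. Because the protocol gave nitrate and ammonium together, and chloride to the controls alone, the effects of the 3 ions cannot be told apart. Nor can that of salt concentration, which was 20 mM KNO3 plus 20 mM NH4NO3 in the nitrogen shoots against 20 mM KCl.

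Plants take up nitrate through membrane transporters, reduce it to nitrite in the cytosol and to ammonium in plastids, and build the ammonium into amino acids. Nitrate is also a signal: NIN-like proteins (NLP), a family of transcription factors, act on genes for nitrate use and on genes for further regulators within minutes. In leaves the reduction draws on electrons from photosynthesis, whereas in non-green plastids the oxidative pentose phosphate pathway supplies NADPH, from which root-type ferredoxin-NADP reductases and ferredoxins pass electrons to nitrite reductase. Cytokinin, a hormone made partly in response to nitrate, carries information on nitrogen supply between root and shoot.

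Gene counts per library ran from 12799414 to 13715503 in the nitrogen shoots and from 12391765 to 15861166 in the KCl shoots. A KCl shoot library of another time (90 min, replicate 2) held 1302 gene counts and entered the shared estimate of spread; without it 186 genes were called in the main comparison, against 199 with it. Levels are given as CPM, the usual depth-normalised read count, with library totals scaled by edgeR's TMM factors. The share of reads assigned to no feature was 2.23% to 2.36% in the nitrogen shoots and 3.04% to 4.40% in the KCl shoots, and the groups did not overlap in it. Its part in the results was not tested. The 13 photosynthesis markers summed to 8137 to 9403 CPM in the nitrogen shoots and 6852 to 13660 CPM in the KCl shoots, against 187.9 to 319.8 CPM in nitrogen roots and 273.4 to 500.2 CPM in KCl roots at 10 min. The 13 root markers with enough counts over both organs summed to 94.78 to 108.6 CPM in the nitrogen shoots and 70.79 to 94.08 CPM in the KCl shoots. Most of that sum was SCR, a regulator that is also expressed in leaves, with 85.6, 82.6 and 95.1 CPM in the nitrogen shoots and 54, 75.2 and 69.5 CPM in the KCl shoots. Besides SCR, other root markers were also present in all 6 libraries. TIP2;2 had 78 to 162 counts, FRO2 at least 64 and CASP1 17 to 74. The remaining root markers had at most 19 counts in any of the 6 libraries. Of these, the root hair regulator RSL4 and the root iron transporter IRT1 had at most 1 count. In whole shoots, fewer cells of a type and less RNA per cell cannot be told apart.

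After 10 min the nitrogen shoots differed from the KCl shoots in a small set of genes, almost all of them higher with nitrogen. Genes for nitrite reduction, for its cofactor and for its electron supply rose, as did repressors of the LBD and myb-like families, a pair of kinases and 5 cytokinin response factors. With edgeR's quasi-likelihood test and Benjamini-Hochberg adjustment, 199 of 20708 genes (0.961%) passed an adjusted p of 0.05, and such genes are named as called here. Of these, 191 were higher (0.922% of all genes tested) and 8 lower (0.0386%). The called rises had a median log2 fold change of 1.16, and 55 of them reached 2 and 12 reached 4. The median over all genes tested was 0.00, and no scaling tried moved it by as much as 0.1. In 197 of the 199 called genes the 3 nitrogen and the 3 KCl libraries did not overlap. Over all genes, all 3 nitrogen libraries lay above all 3 KCl libraries for 8.68% and below them for 6.71%. The spread in this count was estimated from all 57 shoot libraries; with the 6 libraries alone edgeR called 116 genes (113 higher and 3 lower), and DESeq2 on the 6 called 300 (244 higher and 56 lower).

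**Figure D1:**
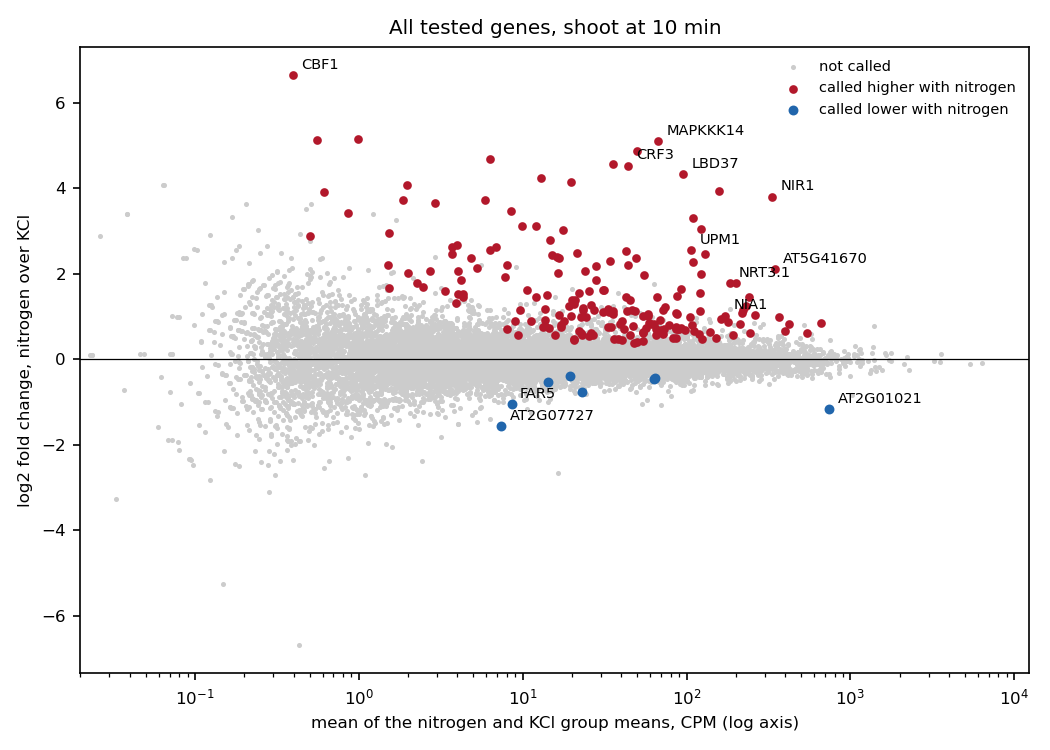
Log2 fold change of nitrogen over KCl in shoots at 10 min (vertical axis) against the mean level of the 2 groups in CPM (log axis), 1 point per tested gene with a count in these libraries. The 191 genes called higher spread from 0.37 to 6.63 on the log2 scale, and the 8 called lower lie between -1.56 and -0.39.

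Genes of nitrate uptake and reduction were led by the steps after nitrate. NIR1 is nitrite reductase, which turns nitrite into ammonium in plastids. It had 546, 574 and 751 CPM in the nitrogen shoots, against 38.2, 49.9 and 45.8 CPM in the KCl shoots. Every nitrogen library was more than 10 times as high as every KCl library, and the log2 fold change was 3.80 ± 0.28 (SE, adjusted p = 1.96e-13). UPM1 makes the first step towards sirohaem, the cofactor of nitrite and sulphite reductases, and had the smallest p of all genes. Its levels were 162, 156 and 228 CPM in the nitrogen shoots and 29.1, 32.9 and 30.7 CPM in the KCl shoots, with no overlap (log2 fold change 2.56 ± 0.16, adjusted p = 3.16e-15). NIA1, one of the nitrate reductases, had 209, 256 and 226 CPM in the nitrogen shoots and 145, 105 and 90.3 CPM in the KCl shoots. The groups did not overlap, but the rise of 1.02 ± 0.26 passed narrowly (adjusted p = 0.0399). It did not pass without nitrogen replicate 1, 2 or 3, without KCl replicate 2 or 3, or with the 6 libraries alone, and adjusted p ran from 2.86e-05 to 0.264 over 14 alternative settings. The other nitrate reductase, NIA2, averaged 1763 ± 117 CPM in the nitrogen shoots and 1025 ± 246 CPM in the KCl shoots (SD, n = 3 each) and was not called (adjusted p = 0.079).

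In all, 3 of the 9 tested genes for nitrate reduction and its cofactors rose and none fell, and the median log2 fold change of the list was 0.18. The molybdenum cofactor genes CNX1, CNX2, CNX3 and CNX5 and the last sirohaem enzyme, SIRB, had log2 fold changes between 0.00 and 0.18, and none was called. Among 22 tested nitrate transport genes 2 rose and none fell, with a median log2 fold change of 0.15. NRT3.1, the partner protein that high-affinity NRT2 transporters need, had 315, 292 and 251 CPM in the nitrogen shoots, against 92.9, 64.3 and 94.1 CPM in the KCl shoots. The lowest nitrogen library stood well above the highest KCl library (log2 fold change 1.77 ± 0.18, adjusted p = 1.09e-09). NRT2.1, the main high-affinity transporter of roots, was low in shoots, with 12, 9.39 and 10.9 CPM in the nitrogen shoots and 2.71, 1.26 and 1.5 CPM in the KCl shoots, again without overlap (log2 fold change 2.55 ± 0.48, adjusted p = 0.000805). NPF6.3, a transporter that also senses nitrate, averaged 532 ± 18.6 CPM in the nitrogen shoots and 464 ± 21.8 CPM in the KCl shoots and was not called (adjusted p = 0.839).

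The supply of reductant was the most widely called list, with 7 of 13 tested genes higher, none lower and a median log2 fold change of 0.86. AT5G41670 is annotated as a 6-phosphogluconate dehydrogenase, an enzyme of the oxidative pentose phosphate pathway. It had 531, 510.0 and 649 CPM in the nitrogen shoots and 131, 134 and 125 CPM in the KCl shoots (log2 fold change 2.11 ± 0.17, adjusted p = 1.33e-12). FD3, a ferredoxin of non-green plastids, had 346, 313 and 399 CPM in the nitrogen shoots, against 144, 119 and 123 CPM in the KCl shoots. The groups were far apart for both genes, and that of FD3 differed by 1.46 ± 0.14 on the log2 scale (adjusted p = 2.32e-10). RFNR1 is the root-type ferredoxin-NADP reductase that feeds such ferredoxins, and it had 192, 157 and 189 CPM in the nitrogen shoots and 73.2, 51.6 and 59.4 CPM in the KCl shoots (log2 fold change 1.55 ± 0.18, adjusted p = 3.81e-08).

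G6PD2 is a plastid glucose-6-phosphate dehydrogenase, the entry enzyme of the pathway. It had 99.1, 93.2 and 119 CPM in the nitrogen shoots and 45.3, 45.8 and 42.3 CPM in the KCl shoots, without overlap (log2 fold change 1.22 ± 0.14, adjusted p = 2.3e-08). The remaining 3 called members were G6PD3 (log2 fold change 2.18), RFNR2 (1.05) and the second 6-phosphogluconate dehydrogenase AT1G64190 (0.86), with edgeR adjusted p of 1.82e-07, 0.00176 and 3.62e-05. The 6 members that were not called lay between -0.22 and -0.02; among them were G6PD1, G6PD4, G6PD5 and G6PD6 and the third 6-phosphogluconate dehydrogenase, AT3G02360, with a mean of 596 CPM in the nitrogen shoots and 645 CPM in the KCl shoots.

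**Figure D2:**
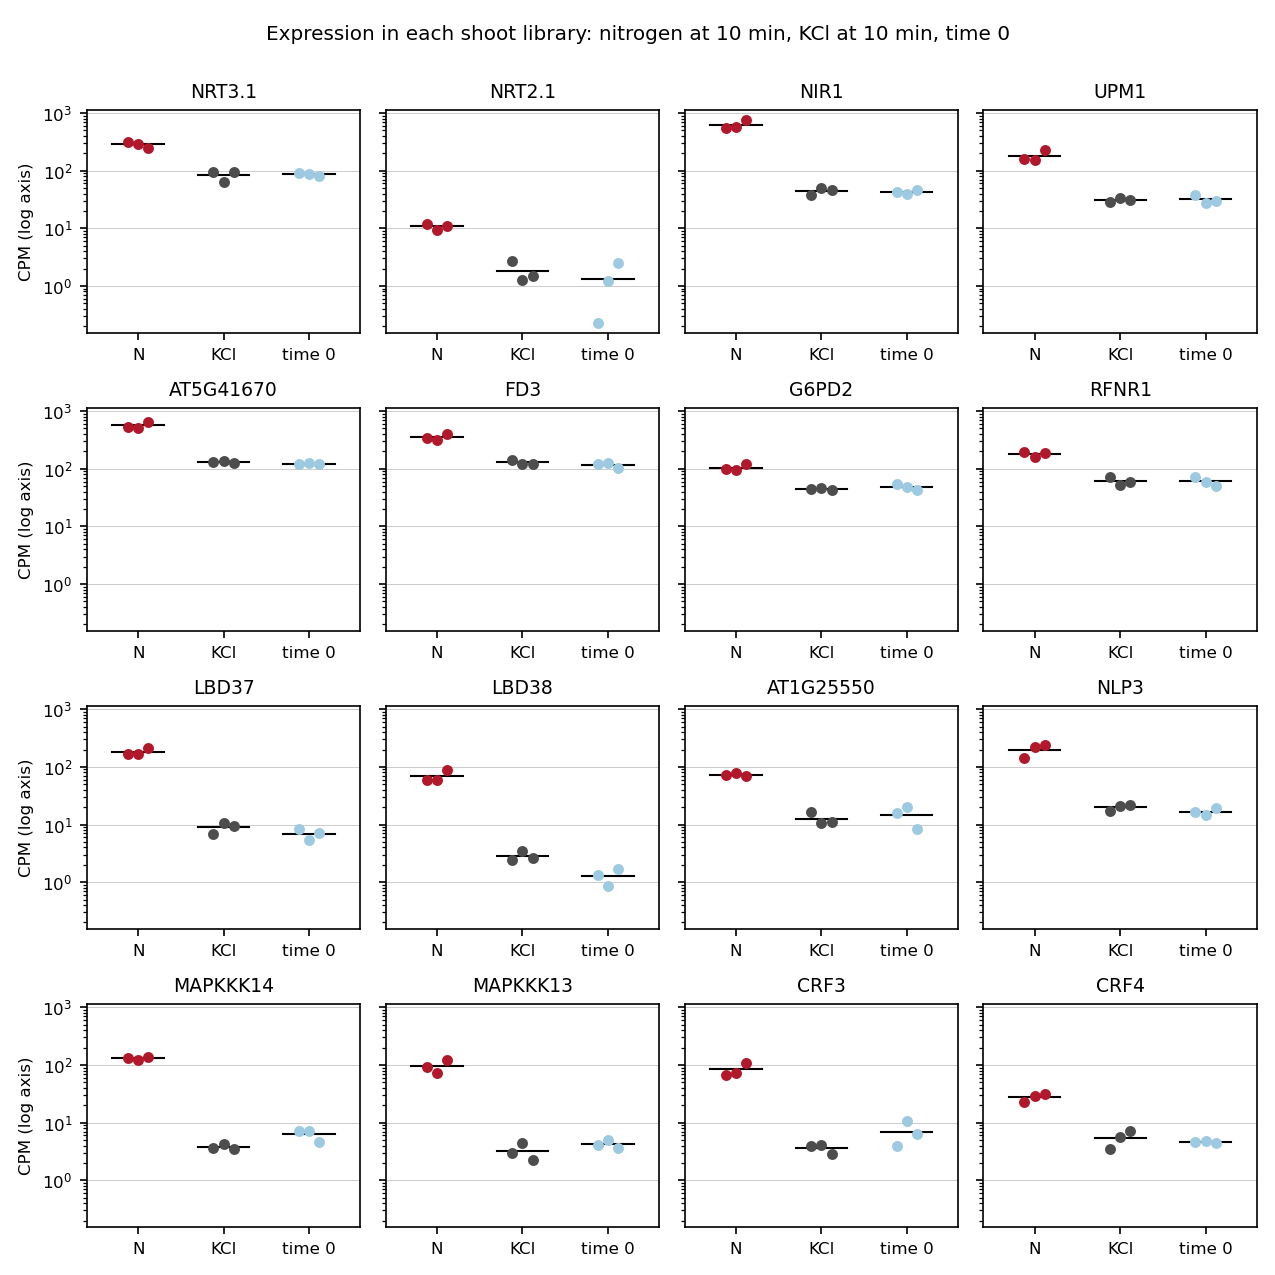
CPM (log axis, the same in all panels) of 16 genes in each library, with nitrogen shoots at 10 min on the left, KCl shoots at 10 min in the middle and shoots at time 0 on the right; bars are group means. In every panel the 3 nitrogen libraries lie above the other 6, for example 546 to 751 CPM of NIR1 against 38.2 to 49.9 CPM with KCl.

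Repressors and scaffold proteins known from nitrate signalling rose by some of the largest factors. Of 15 tested LBD, myb-like and BT genes, 6 rose and none fell, and the median log2 fold change was 1.54. LBD37 and LBD38 are LOB domain proteins that repress nitrate-responsive and anthocyanin genes. LBD37 had 169.7, 167 and 209 CPM in the nitrogen shoots, against 6.98, 10.7 and 9.59 CPM in the KCl shoots (log2 fold change 4.32 ± 0.42, adjusted p = 4.33e-10). LBD38 had 59.1, 59.1 and 87 CPM in the nitrogen shoots and 2.44, 3.52 and 2.59 CPM in the KCl shoots (log2 fold change 4.57 ± 0.46, adjusted p = 8.98e-10). For both genes all nitrogen libraries were more than 10 times as high as all KCl libraries. The third member of that group, LBD39, was close to the detection limit, with 75 counts in the 3 nitrogen libraries and 2 counts in the 3 KCl libraries, a ratio of 41.1 with an exact 95% interval of 11.0 to 346 that covers counting error only.

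AT1G25550, annotated as a myb-like transcription factor, had 71.6, 77.3 and 69.3 CPM in the nitrogen shoots and 16.3, 10.7 and 10.9 CPM in the KCl shoots (log2 fold change 2.52 ± 0.30, adjusted p = 4.76e-08). HRS1, of the same family and known for restraining root growth according to nitrate and phosphate supply, had 6.46, 4.58 and 5.25 CPM in the nitrogen shoots and 0.678, 0.251 and 0.334 CPM in the KCl shoots (log2 fold change 3.66 ± 0.51, adjusted p = 2.25e-06). Neither gene's groups overlapped. BT1, a BTB and TAZ domain scaffold protein, averaged 3.54 ± 1.19 CPM in the nitrogen shoots and 1.01 ± 0.344 CPM in the KCl shoots (adjusted p = 0.0167), while its relative BT2 averaged 0.415 CPM with nitrogen and 0.132 CPM with KCl and was not called.

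Among 27 other transcription factors linked to nitrate, 1 rose and none fell, with a median log2 fold change of 0.06. That gene was NLP3, a NIN-like protein, with 140.3, 218 and 238 CPM in the nitrogen shoots and a mean of 20.2 ± 2.53 CPM (SD, n = 3) in the KCl shoots. The groups did not overlap (log2 fold change 3.3 ± 0.45, adjusted p = 2.1e-06). The other 8 NLP genes lay between -0.31 and 0.29. NLP7, the NIN-like protein best known as a nitrate sensor, averaged 122 ± 10.1 CPM in the nitrogen shoots and 100.0 ± 3.33 CPM in the KCl shoots and was not called (adjusted p = 0.628).

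Among 12 tested kinases and calcium sensors linked to nitrate, 2 rose and none fell. Both were MAP kinase kinase kinases, the entry step of kinase cascades. MAPKKK14 had 134, 120.0 and 138 CPM in the nitrogen shoots, against 3.66, 4.27 and 3.5 CPM in the KCl shoots. MAPKKK13 had 93.2, 71.7 and 123 CPM in the nitrogen shoots and 2.98, 4.4 and 2.25 CPM in the KCl shoots. These were the largest fold changes among called genes with at least 5 CPM in the nitrogen shoots, at 5.09 ± 0.40 and 4.88 ± 0.38 on the log2 scale (adjusted p = 1.04e-12 and 1.13e-12). MKK3 and MPK7, later steps of the same kind of cascade, had log2 fold changes of -0.03 and 0.19 and were not called. The other members, among them CIPK8, CIPK23 and the CPK10, CPK30 and CPK32 calcium-dependent kinases, lay between -0.21 and 0.65, and the list's median was 0.15.

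Cytokinin response genes were called in 6 of 17 tested, all higher, with a median log2 fold change of 0.51. Of the 6, 5 were cytokinin response factors (CRF), AP2/ERF transcription factors of which several are cytokinin-inducible. CRF3 had 67.7, 73.3 and 110.2 CPM in the nitrogen shoots, against 3.93, 4.02 and 2.84 CPM in the KCl shoots (log2 fold change 4.53 ± 0.38, adjusted p = 7.42e-12). CRF4 had 23.1, 29.3 and 31 CPM in the nitrogen shoots and 3.52, 5.65 and 7.17 CPM in the KCl shoots (log2 fold change 2.36 ± 0.23, adjusted p = 3.07e-10). The groups were well separated for both, and more so for CRF3 than for CRF4. CRF5 had 27, 25.1 and 28.8 CPM with nitrogen and 11.9, 11.6 and 10.5 CPM with KCl, and CRF2 had 46.8, 39.1 and 83.9 CPM with nitrogen and 7.52, 14.9 and 11.8 CPM with KCl (log2 fold changes 1.25 ± 0.13 and 2.31 ± 0.25, adjusted p = 4.15e-09 and 4.97e-09). None of these groups overlapped, and for CRF2 nitrogen replicate 3 stood above the other 2 nitrogen libraries. CRF10 rose by 0.70 ± 0.11 on the log2 scale (adjusted p = 3.97e-05). The other CRF genes of the list, CRF1, CRF6 and CRF11, were not called.

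Type-A response regulators, the early negative feedback genes of cytokinin signalling, did not move together. ARR7 had 11.6, 5.51 and 8.58 CPM in the nitrogen shoots and 2.17, 1.88 and 1.75 CPM in the KCl shoots and was called (log2 fold change 2.14 ± 0.42, adjusted p = 0.00149). ARR4, ARR5, ARR6, ARR8, ARR9, ARR15 and ARR16 lay between -0.34 and 0.12 and were not called, nor was ARR3, with 0.481 CPM with nitrogen and 0.073 CPM with KCl. In cytokinin metabolism and export, 2 of 15 tested genes rose and none fell, with a median of 0.12. IPT3, the nitrate-inducible enzyme that makes cytokinin precursors, averaged 20.8 ± 3.68 CPM in the nitrogen shoots and 7.29 ± 1.63 CPM in the KCl shoots (SD, n = 3 each), without overlap (log2 fold change 1.51 ± 0.19, adjusted p = 2.48e-07). IPT1, another such enzyme, averaged 2.74 ± 0.875 CPM in the nitrogen shoots and 0.333 ± 0.256 CPM in the KCl shoots (adjusted p = 0.00191), and this call was lost in 1 of 14 alternative settings. The 6 tested CKX genes for cytokinin breakdown lay between -0.61 and 0.40 with none called.

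Single members were called in other pathways. Of 13 auxin genes 2 rose: IAA2, an early auxin-response repressor, had 178, 165 and 151 CPM in the nitrogen shoots and 72.1, 77.5 and 76.7 CPM in the KCl shoots (log2 fold change 1.13 ± 0.21, adjusted p = 0.000566). AFB3, an auxin receptor, had 135, 130.5 and 165 CPM in the nitrogen shoots and 95, 101 and 91.5 CPM in the KCl shoots (log2 fold change 0.58 ± 0.09, adjusted p = 3.06e-05). Neither gene's groups overlapped, but the call of AFB3 was lost with the 6 libraries alone, and its adjusted p ran from 4.5e-06 to 0.126 over the alternative settings. The receptor TIR1 averaged 118 CPM with nitrogen and 125 CPM with KCl and was not called. Of 4 greening regulators GATA22 rose, a GATA factor that promotes chloroplast development, with 23.7, 19 and 44 CPM in the nitrogen shoots and 11.7, 11.9 and 9.18 CPM in the KCl shoots (log2 fold change 1.4 ± 0.22, adjusted p = 2.81e-05). This call too was lost with the 6 libraries alone, and adjusted p ran from 2.06e-06 to 0.178. Of 9 sulphate genes 1 rose, APR2, a reductase of sulphate assimilation, with 252, 282 and 275 CPM in the nitrogen shoots and 168, 161 and 127 CPM in the KCl shoots. Its rise of 0.83 ± 0.22 (adjusted p = 0.0432) did not pass when any 1 of the 6 libraries was left out, and adjusted p ran from 2.31e-06 to 0.295 over the alternative settings.

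CBF1 and CBF2, AP2/ERF factors best known for cold responses, were the only 2 of 25 touch and rapid stress genes to be called, both higher. The list's median log2 fold change was 0.25, and 21 of the 25 lay above 0. All 3 nitrogen libraries lay above all 3 KCl libraries for 7 of the 25, and below them for 0. Over all genes tested these shares were 8.68% and 6.71%. CBF2 had 13.7, 10.9 and 11.8 CPM in the nitrogen shoots and 1.22, 0.126 and 0 CPM in the KCl shoots (log2 fold change 4.69 ± 0.83, adjusted p = 0.000309). CBF1 had 31 counts in the 3 nitrogen libraries and none in the 3 KCl libraries, so its level was at least 11.3-fold higher with nitrogen if 3 counts are taken as the floor of the KCl group (adjusted p = 0.0102). The call of CBF1 was lost without nitrogen replicate 1 and without any 1 of the 3 KCl replicates, and adjusted p ran from 0.00281 to 0.0712 over the 12 alternative settings that could test it. Their neighbour CBF3 averaged 0.308 CPM with nitrogen and 0.21 CPM with KCl and was not called; the CBF genes are close copies of each other, so reads may be split between them. AT3G62930, annotated with the thioredoxin superfamily and listed with the CC-type glutaredoxins, was the only one of 13 to be called, at 0.892, 1.16 and 2.7 CPM in the nitrogen shoots and 0, 0.251 and 0.167 CPM in the KCl shoots (adjusted p = 0.00524). This call was lost without nitrogen replicate 3, without KCl replicate 1, with the 6 libraries alone and with limma voom, and adjusted p ran from 0.00334 to 0.23 over the alternative settings.

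By the protocol, ammonium had been supplied with the nitrate. Of 19 tested genes for ammonium uptake and assimilation none was called (median log2 fold change -0.03). The ammonium transporter AMT1;1 averaged 23.4 ± 6.48 CPM in the nitrogen shoots and 14 ± 5.17 CPM in the KCl shoots (adjusted p = 0.123). Plastid glutamine synthetase GLN2 averaged 125 CPM with nitrogen and 133 CPM with KCl, and the glutamate synthase GLU1 164 CPM with nitrogen and 199 CPM with KCl. None of 8 carbon skeleton genes was called (median 0.00). All 12 ribosome biogenesis genes lay above 0, between 0.03 and 0.37 with a median of 0.20, but none was called; the nearest was SWA1 (adjusted p = 0.054). No gene was called among 20 of the circadian clock (median -0.03), 21 of abscisic acid and osmotic stress (-0.02), 15 of jasmonate (0.03), 16 of phosphate (0.02), 18 of low energy and autophagy (-0.04), 11 of heat shock (0.62) and 7 of hypoxia (0.46). Of the 11 heat shock genes 10 lay above 0. Their summed level was 100.2 to 218.4 CPM in the nitrogen shoots and 105.2 to 143.7 CPM in the KCl shoots, in overlapping groups. Some members were low, for example HSP18.2 with 2.27 CPM with nitrogen and 1.91 CPM with KCl. None of the 13 photosynthesis markers (median -0.26), 11 root markers with enough counts in shoots (0.25) or 7 markers of guard cells, epidermis, phloem and meristem (-0.13) was called. Over all 26 lists, 36 of 372 tested genes were higher and none lower; the lists were assembled with nitrate biology and earlier results in view.

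**Figure D3:**
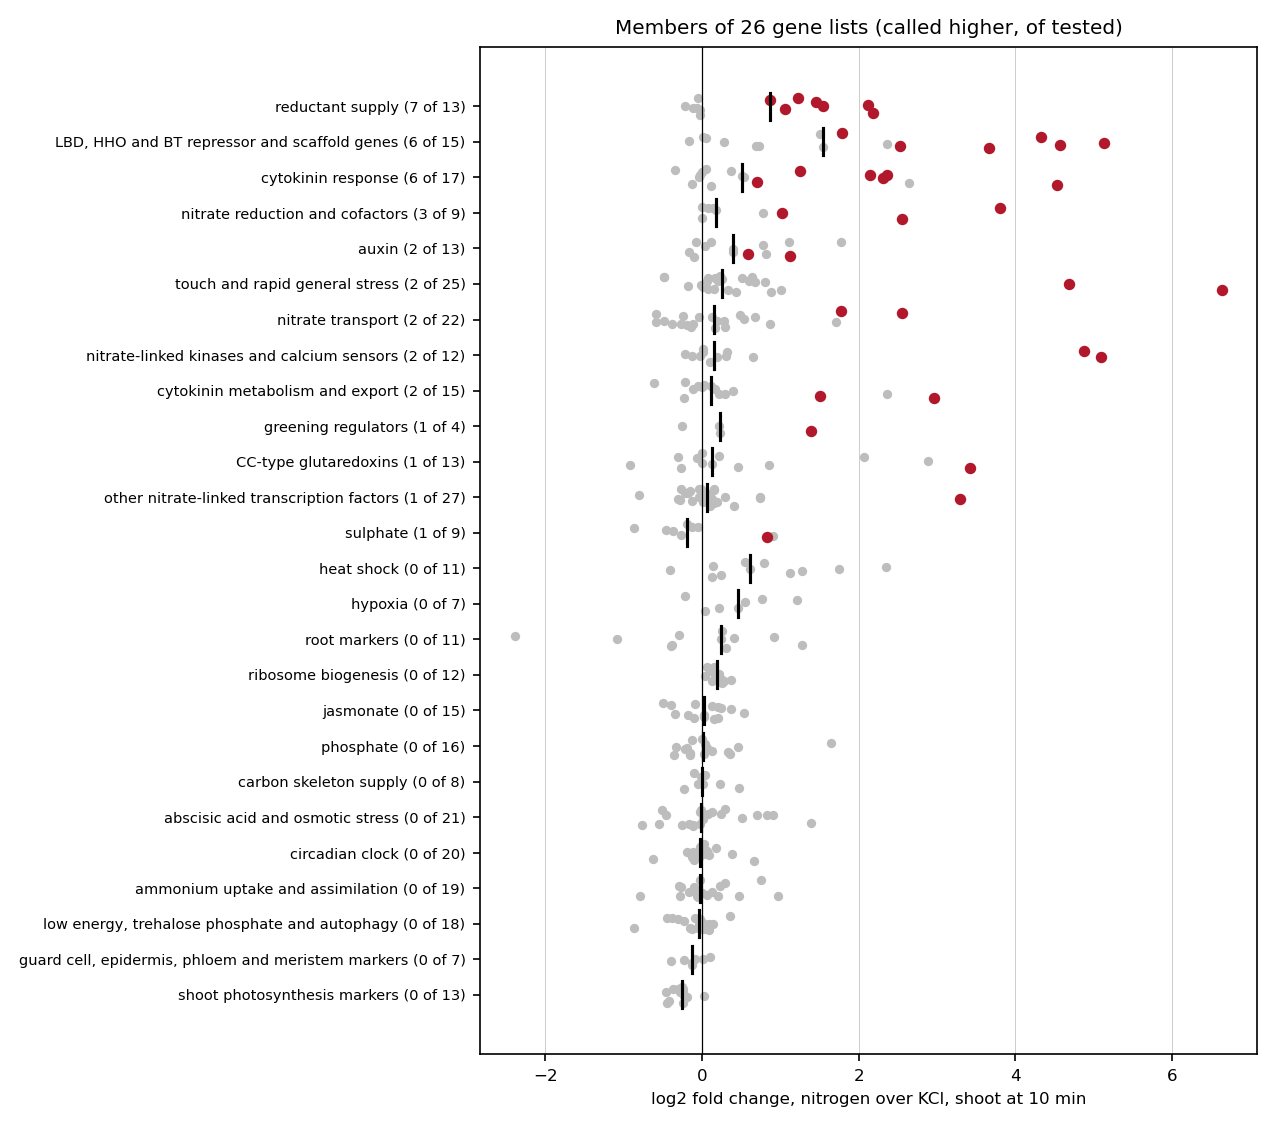
Log2 fold change of nitrogen over KCl in shoots at 10 min for each tested member of 26 gene lists; red points are called genes, grey points the others, and black bars list medians. Reductant supply (7 of 13), the LBD, HHO and BT list (6 of 15) and cytokinin response (6 of 17) hold the most called members; HHO is the name used for the myb-like genes.

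Several of the largest rises lay outside these lists. AT5G09800, an ARM repeat protein, had 284, 310.0 and 288 CPM in the nitrogen shoots and 18.5, 16.6 and 22.9 CPM in the KCl shoots (log2 fold change 3.93 ± 0.28, adjusted p = 1.14e-13). AT5G19120, annotated as an aspartyl protease, had 27, 19.9 and 26.7 CPM in the nitrogen shoots and 1.15, 1.26 and 1.5 CPM in the KCl shoots (log2 fold change 4.24 ± 0.46). AT3G19030, annotated as similar to a TFIID subunit, had 30.2, 29.6 and 52.1 CPM in the nitrogen shoots and 1.76, 2.95 and 1.5 CPM in the KCl shoots (4.14 ± 0.54). The rule that named the largest rises required groups without overlap, so their separation is no further result. The adjusted p of edgeR was 6.31e-09 for AT5G19120 and 5.75e-07 for AT3G19030. AT1G32928, named after a rapidly elicited defence transcript, averaged 11 ± 3.07 CPM with nitrogen and 0.85 ± 0.584 CPM with KCl (3.73 ± 0.51, adjusted p = 1.82e-06). AT1G35560, a TCP family transcription factor, had 169, 165 and 214 CPM in the nitrogen shoots and 39.5, 37.6 and 35.5 CPM in the KCl shoots, with one of the smallest adjusted p (3.6e-15) at a log2 fold change of 2.28 ± 0.15.

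The 8 called lower genes had a median log2 fold change of -0.64, and 3 of them reached a log2 fold change of -1 or below. RPN1A, a subunit of the proteasome's regulatory particle, had 52.6, 51.1 and 56.2 CPM in the nitrogen shoots and 74.7, 67.8 and 75.9 CPM in the KCl shoots (log2 fold change -0.45 ± 0.10, adjusted p = 0.0131). NAD-ME1, a mitochondrial malic enzyme, had 49.2, 60.2 and 54.8 CPM in the nitrogen shoots and 80.5, 64.5 and 76.2 CPM in the KCl shoots (-0.43 ± 0.10, adjusted p = 0.0212). FAR5, which makes fatty alcohols of suberin, averaged 5.57 ± 1.09 CPM with nitrogen and 11.6 ± 2.52 CPM with KCl (-1.05 ± 0.26, adjusted p = 0.0236). AT1G74910, AT4G18060 and AT2G44230 had log2 fold changes of -0.39, -0.53 and -0.75. No lower call held under all 14 alternative settings. Of the 35 named higher genes 28 passed in all settings that could test the gene. These shares cannot be compared, since the named higher genes were picked by small p or large rise, whereas all 8 lower calls were named.

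A pair of lower genes belongs to sequence that exists in near-identical copies. AT2G07727, annotated as cytochrome b, had 4.53, 4.19 and 2.54 CPM in the nitrogen shoots and 10.8, 14.6 and 7.76 CPM in the KCl shoots (-1.56 ± 0.37, adjusted p = 0.0171). It lies in the copy of the mitochondrial genome inserted in chromosome 2, where 45 of the 51 tested genes AT2G07680 to AT2G07830 had a log2 fold change below 0 (median -0.49). AT2G01021, an open reading frame whose annotated neighbours are ribosomal RNA genes, had 409.5, 458 and 508 CPM in the nitrogen shoots and 789, 1253 and 1049 CPM in the KCl shoots (-1.17 ± 0.31, adjusted p = 0.0476). At time 0 it had 533, 461 and 577 CPM, nearer to the nitrogen than to the KCl libraries. AT2G07727 went the other way, with 13.1, 12.7 and 14.6 CPM at time 0, nearer to the KCl libraries. For both, the assignment of reads is uncertain, and the share of reads without a feature, given above, was also lower in the nitrogen shoots. The nitrogen and KCl shoot libraries had 0 counts on genes of the mitochondrial and plastid genomes themselves. Whether mitochondrial reads were counted at the insert was not tested.

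Few genes were called between the KCl shoots at 10 min and the shoots at time 0. KCl against time 0 gave 4 called genes of 20708 (0.0193%), all higher with KCl, and none was among the 191 genes called higher with nitrogen. Over those 191, the median log2 difference was 1.16 for nitrogen against time 0 and -0.05 for KCl against time 0; the first shares its nitrogen libraries and the second its KCl libraries with the comparison that chose the genes. Nitrogen at 10 min against time 0 called 602 of 20708 genes (2.91%), 538 of them higher and 64 lower. Of the 191, 171 were called higher there, again with shared nitrogen libraries. NIR1, for example, averaged 624 ± 111 CPM in nitrogen shoots, 44.6 ± 5.91 CPM in KCl shoots and 42.3 ± 2.67 CPM at time 0, and CRF3 averaged 83.7 ± 23.1 CPM in nitrogen shoots, 3.6 ± 0.659 CPM in KCl shoots and 6.92 ± 3.37 CPM at time 0.

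Most genes called at 10 min were not called at 5 min. Of the 191 genes, 132 had a log2 fold change above 0 at 5 min, with a median of 0.16, and 3 were called there, which were all the higher calls at 5 min (0.0145% of genes tested). They were AT5G09800 (log2 fold change 1.78), CRF3 (1.92) and AT1G35560 (0.73), with edgeR adjusted p of 0.000325, 0.0326 and 0.0206. A test of the difference itself, the nitrogen effect at 10 min minus that at 5 min, called 85 of 20708 genes (0.41%), 80 of them larger at 10 min (0.386%). It called 74 of the 191 higher genes, all larger at 10 min. The 10 min libraries that chose the 191 also enter this difference, which favours larger values at 10 min. With the libraries of the 2 times alone the same test called 4 genes, MAPKKK13, MAPKKK14, G6PD2 and UPM1, while DESeq2 on those libraries called 107.

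UPM1 showed the smallest p for this difference, with a log2 fold change of 2.56 at 10 min and 0.11 at 5 min (difference 2.45 ± 0.22, adjusted p = 7.24e-10). NIR1 had 3.80 at 10 min and 0.88 at 5 min (difference 2.92 ± 0.36, adjusted p = 4.47e-06). The kinase genes had the widest steps among the 25 named genes with a called difference, 3.90 ± 0.52 for MAPKKK13 and 3.79 ± 0.51 for MAPKKK14 (adjusted p = 1.32e-05 and 1.48e-05). Some genes that were called at 10 min had no called difference from 5 min, among them NRT2.1 (difference 1.05 ± 0.74), NLP3 (2.19 ± 0.60) and NIA1 (0.98 ± 0.37).

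Between 10 and 15 min no gene passed edgeR's test of the difference, which does not show that the effects were alike. The test of 10 min minus 15 min called 0 of 20708 genes with edgeR, where 925 had an unadjusted p under 0.05, and 9 with DESeq2 on the libraries of the 2 times. Of the 191 genes, 166 were called higher at 15 min, which is 86.9% of the 191 and 50.8% of the 327 genes called higher at 15 min (1.58% of genes tested), and their median log2 fold change there was 1.41. At 120 min 167 were called higher, which is 87.4% of the 191 and 4.22% of the 3957 called higher at that time (19.1% of genes tested). At all 7 later times 135 were called higher, and 3 were called at no other time. These 3, named after their values were seen, were COV1, AT5G23370 and AT2G15555, of which the last is a non-coding RNA with 42 counts in the nitrogen and 1 in the KCl libraries, in overlapping groups. LBD38 went on to 7.60 at 60 min and RFNR1 to 4.07, while AT1G13000, a DUF707 protein, had 1.59 at 10 min and 0.34 at 120 min. Among the 8 lower genes only AT2G07727 and AT2G01021 were also called lower at 15 min, at -1.71 and -2.13, where 37 of all genes tested (0.179%) were. Both had also been called lower at 5 min, as 8 of all genes tested (0.0386%) were, at -2.24 and -1.47. At 30 min AT2G07727 had -2.02 and AT2G01021 -1.63. At 60 min the values were 0.63 for AT2G07727 and 0.50 for AT2G01021, neither of them called, and at 90 min AT2G01021 was called higher with nitrogen (0.87, adjusted p = 0.0358). The share of reads with no feature was 1.83% to 2.03% in nitrogen shoots and 3.45% to 4.06% in KCl shoots at 30 min, and 3.61% to 4.38% in nitrogen shoots and 2.9% to 3.41% in KCl shoots at 60 min; its part in these values was not tested.

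**Figure D4:**
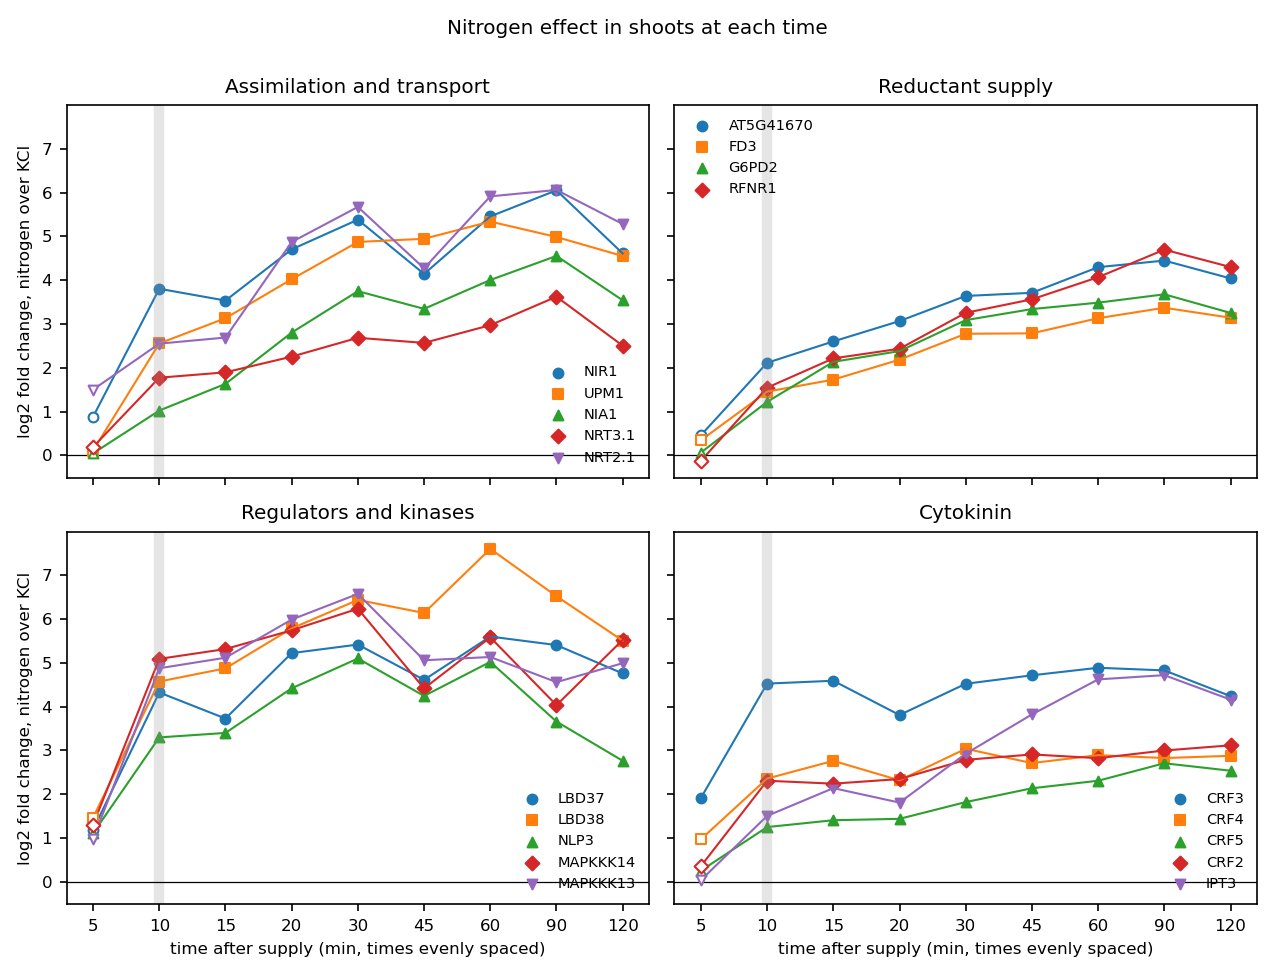
Log2 fold change of nitrogen over KCl in shoots (vertical axis) at 9 times after supply (horizontal axis, evenly spaced) for 19 named genes in 4 groups; filled symbols are called, open symbols are not, and the grey bar marks 10 min. CRF3 is the only one of the 19 with a filled symbol at 5 min, at 1.92, and all are filled from 10 min on.

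More genes were called in roots at 10 min, from deeper libraries. Nitrogen against KCl in roots called 3550 of 22491 genes (15.8%), with 31383269 to 42301065 gene counts in nitrogen roots and 41343093 to 48186099 in KCl roots. Of the 191 genes higher in shoots, 101 were also higher in roots, which is 52.9% of the 191 and 5.73% of the 1764 genes called higher in roots (7.84% of genes tested); 2 were lower there, SHS1 and MIR414, named after their values were seen. The test of the difference, the shoot effect minus the root effect, called 1072 of 22491 genes (4.77%), 537 larger (2.39%) and 535 smaller (2.38%) in shoots. Among the 191 it called 60 that were larger in shoots and 1 that was smaller. The shoot libraries that chose the 191 also enter this difference, which favours larger values in shoots. The count of 1072 depends strongly on the libraries fitted and on the method. With the 12 libraries of the 2 organs alone edgeR called 9 genes and DESeq2 172, and limma voom called 691 with all libraries but the one of 1302 gene counts. Root values and differences come from a fit of all libraries of both organs, and shoot values from that of the 57 shoot libraries. The deposited counts of the organs also differed in kind. At 10 min the shoot libraries listed 0 non-unique alignments and 0 counts on plastid and mitochondrial (organelle) genes. The root libraries listed 5296711 to 8889189 non-unique alignments and 311528 to 627825 organelle gene counts. The part of this in the organ differences was not tested.

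For 4 cytokinin response factors the nitrogen effect was larger in shoots than in roots. CRF3 had a log2 fold change of 4.53 in shoots and 0.56 in roots (difference 3.94 ± 0.41, adjusted p = 6.68e-11). CRF2 had 2.31 in shoots and 0.37 in roots (difference 1.91 ± 0.31, adjusted p = 3.13e-05), and CRF4 had 2.36 in shoots and 0.52 in roots (difference 1.82 ± 0.29, adjusted p = 3.08e-05). CRF5 differed by 1.18 ± 0.22 (adjusted p = 0.000333). AT1G13000 had 1.59 in shoots and 0.02 in roots (difference 1.55 ± 0.21, adjusted p = 1.13e-06). With the 12 libraries alone, 6 of the 20 named genes with a called difference remained called, namely AT1G13000, AT5G09800, CRF3, LBD37, MAPKKK14 and NLP3.

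LBD37, MAPKKK14 and NIR1 rose in both organs, and more so in shoots. LBD37 had 4.32 in shoots and 2.19 in roots (difference 2.11 ± 0.46, adjusted p = 0.00246), MAPKKK14 5.09 in shoots and 3.05 in roots (difference 2.02 ± 0.44, adjusted p = 0.00251). NIR1 had 3.80 in shoots and 2.21 in roots (difference 1.58 ± 0.37, adjusted p = 0.00491), but its difference was not called with the 12 libraries alone. Among the reductant genes G6PD2 differed by -0.07 ± 0.22, RFNR1 by -0.41 ± 0.26 and AT5G41670 by 0.61 ± 0.24, none of them called. IAA2 and AFB3 had the larger fold change in roots, with differences of -0.41 ± 0.31 and -0.25 ± 0.15 that were not called. The called gene that was smaller in shoots was RTFL17, a ROTUNDIFOLIA-like peptide named here after its value was seen, with 0.74 in shoots and 2.43 in roots (difference -1.71 ± 0.27, adjusted p = 3.13e-05). GATA22 had no count in any root library at 10 min, so its organ difference could not be tested.

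**Figure D5:**
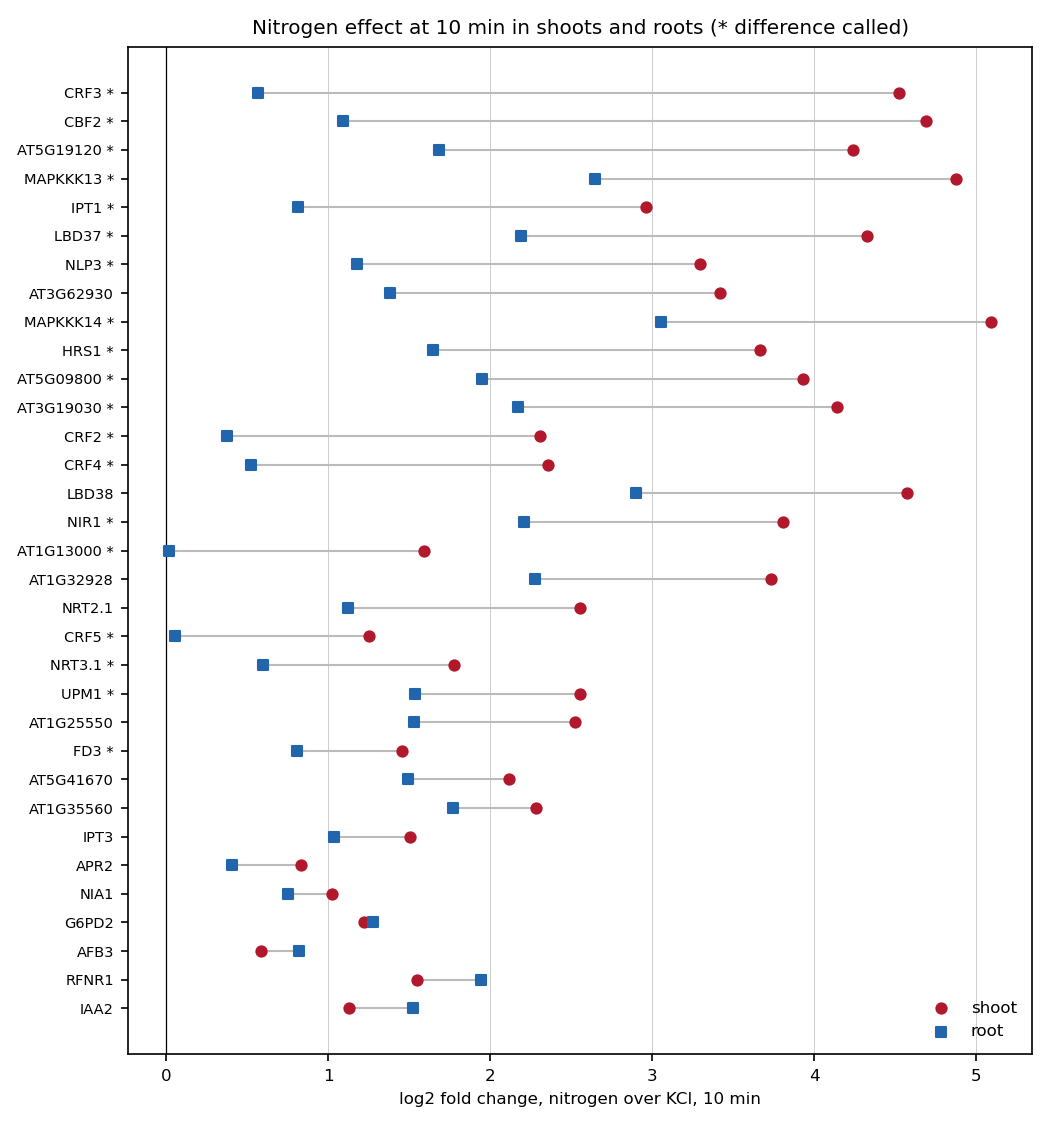
Log2 fold change of nitrogen over KCl at 10 min in shoots (circles) and roots (squares) for 33 named genes called higher in shoots, ordered by the difference; stars mark called differences. GATA22, with no count in these root libraries, and CBF1, with none in the KCl shoots, are not drawn. Of the 33, CRF3 has the widest gap, at 4.53 in shoots and 0.56 in roots, and the lowest 4 genes, from G6PD2 to IAA2, have their root value at or above the shoot value.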

How the data were processed

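Polyadenylated RNA of seedling shoots and roots was sequenced; per the labels' protocols, dUTP marked the second cDNA strand. The authors deposited whole-number counts of reads per gene, 1 table per library, which lists 28712 genes and ends in 5 summary lines. Those lines stayed out of library totals and tests; in the 6 libraries compared, reads with no feature were 2.23% to 4.40% and ambiguous reads 2.26% to 2.62% of all. The submitters' processing notes name TAIR10, TopHat2 (version 2), HTSeq and limma, with no role, order or strand setting, so counts of genes that overlap, are antisense or have close copies are uncertain. Symbols come from a RefSeq table of TAIR10.1, where 28007 identifiers were found; no coordinates are printed, since the build names differ.

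Genes were kept by edgeR's filterByExpr (minimum count 10, minimum total 15), scaled by TMM and tested with the quasi-likelihood F-test in edgeR 4.0.16 under R 4.3.3, in 1 fit of all 57 shoot libraries with a mean per group. Differences between organs used 1 fit of all libraries of both organs. In that fit, replicate 1 of the roots at time 0 was used as root by its title and organ label, although its source name says shoot. Adjusted p-values are Benjamini-Hochberg over all genes tested, threshold 0.05. Standard errors (SE) are the log2 fold change divided by the square root of F and are approximate. Alternatives used limma 3.58.1 and DESeq2 1.42.0, other filters and scaling, a replicate block and leaving out each library. The script was tested on simulated data. Intervals and floors cover counting error only.

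The comparison, its gene lists (26 with 392 genes) and the rule for named genes were chosen with earlier results of these data known. Named genes were, per list, at most 4 called members by smallest p, the 12 called rises with the largest log2 fold change at 5 CPM or more in nitrogen shoots and no overlap, the 8 called falls with the smallest p, and for each difference test up to 4 called genes with the smallest p. This gave 43 genes; other members named complete a list.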

Additional observations from a re-analysis of the deposited data

Results flagged for a closer look

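The nitrogen effect of 25 of the 43 named genes differed between 10 and 5 min by edgeR's test of the difference. It was larger at 10 min for 24 of them, with log2 differences, in order of adjusted p, for UPM1 (2.45), NIR1 (2.92), AT1G35560 (1.55), MAPKKK13 (3.9), MAPKKK14 (3.79), AT5G41670 (1.65), RFNR1 (1.67) and NRT3.1 (1.58); for AT1G25550 (2.47), G6PD2 (1.16), AT5G09800 (2.15), FD3 (1.11), LBD37 (3.14), CRF2 (1.95), IPT3 (1.47) and AT5G19120 (3.41); and for AT1G13000 (1.42), AT1G32928 (3.75), CRF5 (0.99), LBD38 (3.11), GATA22 (1.52), CRF3 (2.61), AFB3 (0.61) and CRF4 (1.39). For FAR5 the difference was -1.61, since its log2 fold change was -1.05 at 10 min and 0.56 at 5 min. With the libraries of both times alone, 4 of the 25 passed (G6PD2, MAPKKK13, MAPKKK14 and UPM1), and 21 passed with DESeq2 on those libraries. The higher named genes were chosen by the 10 min shoot libraries, which favours larger values at 10 min.

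Between organs at 10 min the nitrogen effect differed for 20 named genes. It was larger in shoots for 19, with log2 differences, in order of adjusted p, for CRF3 (3.94), AT1G13000 (1.55), CRF4 (1.82), CRF2 (1.91), AT5G09800 (1.96), CRF5 (1.18) and MAPKKK13 (2.21); for LBD37 (2.11), MAPKKK14 (2.02), NIR1 (1.58), NRT3.1 (1.16), AT5G19120 (2.54) and UPM1 (1); and for NLP3 (2.1), CBF2 (3.59), HRS1 (2.01), IPT1 (2.14), FD3 (0.63) and AT3G19030 (1.95). For AT4G18060, called lower in shoots, the difference was -0.77. With the 12 libraries of the 2 organs alone 6 of the 20 passed, and 16 with DESeq2 on them. The higher named genes were chosen by the 10 min shoot libraries, which favours larger values in shoots. The root libraries held more counts than the shoot libraries and, unlike them, listed non-unique alignments and organelle gene counts. The part of depth or of this contrast in these differences was not tested.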

How the results depend on the processing

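The number of genes called for nitrogen against KCl in shoots at 10 min, 199 in the reported fit, was 116 with the 6 libraries alone and 300 with DESeq2 on them; 108 and 167 of these were also among the 199. Leaving out 1 library at a time gave 137 to 184 genes. For 10 min minus 5 min, 85 in the reported fit, the libraries of both times alone gave 4 and leaving out 1 library 57 to 82. For 10 min minus 15 min DESeq2 called 9 genes, against 0 in the reported fit and 0 to 0 with 1 library left out. For shoot minus root, 1072 in the reported fit, the libraries compared gave 9, DESeq2 on them 172, limma voom 691 and leaving out 1 library 741 to 871. These fits differ in the libraries, the method or both, and the cause was not tested.

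Deviations of same-numbered nitrogen and KCl libraries from their group means correlated at 0.23, -0.35 and 0.09 across 15946 genes. Not every library correlated best with its own number, but 3 libraries per group cannot show that pairing was absent. The deposited names group libraries by treatment and replicate number across times, and nitrogen and KCl libraries never share a group. What this grouping means is not stated. With a replicate block 188 genes were called, 185 of them among the 199. Of the 43 named genes none changed direction under 14 alternatives, and 28 passed in each alternative that could test them. Calls were lost in at least 1 for NIA1, IPT1, AT3G62930, CBF1, AFB3, APR2, GATA22 and the 8 lower genes. Genes near 1 CPM, such as CBF1, rest on few reads.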

Other observations

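Genes grouped by their annotated product, chosen after their values were seen and given as a description, included further rises in nitrogen shoots at 10 min. Of 59 tested SAUR-like genes, small early auxin-response genes, 7 were called higher and none lower, with a median log2 fold change of 0.04 over the family. Of 87 AP2/ERF factors 10 were called higher, of which 5 are the cytokinin response factors and 2 the CBF genes of the report, and the family's median was 0.21. Among 37 mitochondrial substrate carriers 3 were called higher (UCP5, SHS1 and AT5G26200), and among 11 heat shock transcription factors 2 were (HSFB2A and HSF A4A). Another MAP kinase kinase kinase, MAPKKK19, was called beside MAPKKK13 and MAPKKK14, out of 15 tested. Of 63 genes annotated as WRKY proteins 3 were called higher, of 229 RING/U-box genes 5, and of 321 ribosomal protein genes 1 (RPSAb); over all genes tested 0.922% were called higher.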
